A study of Mus musculus with 6 samples.

Results

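RNA was compared between RM1536 tumour cells recovered from bone and the RM1536 line that had been injected. RM1536 is the mouse prostate cancer line RM1, of C57BL/6 origin, labelled with eCFP, which fluoresces, and luc2, a luciferase, and the labelled line is a pool of clones 5, 3 and 6. The comparison uses 3 of the 6 libraries of the series: 1 of RM1536 from the femur (called bone) against 2 of RM1536 kept in culture (RM1536 a and RM1536 b). The libraries were chosen by their labels, and every gene of the count table was included. Bone cells came from 1 mouse, 16 days after cells stained with the dye PKH26 had been injected into the heart, and were PKH-negative, that is, no longer carrying detectable dye. Per the labels, all cells were sorted and expanded in DMEM with 5% FBS to 85% confluency, so the bone library is of cells regrown in a dish and not of cells taken directly from marrow. The other libraries are 1 of RM1536 from the lung of the same mouse and 2 of unlabelled RM1 (RM1 a and RM1 b). They entered the fit, and their values stand beside some results.

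Metastasis to bone is known to depend on homing receptors such as the chemokine receptor CXCR4, on adhesion to matrix through integrins, and on signals from tumour cells to osteoblasts and osteoclasts. PTHrP, JAG1 and the BMPs are textbook examples of such signals. Tumour cells in marrow also meet TGF-beta released from resorbed bone and type I interferon from immune cells, and some of them stop dividing for long periods. PKH26 is a membrane dye that is diluted at each division, so its loss is used as a mark of cells that have divided.

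Depth was 22763835 counts in bone, against 24291590 and 30303566 in RM1536 a and b, and scaling factors over all libraries ran from 0.942 to 1.03. Mitochondrially encoded genes took 1.83% of counts in bone, against 1.30% and 1.20% in RM1536 a and b. Bone has no replicate, so its spread was taken from the RM1536 and RM1 duplicates. The labels do not say that a and b are separate cultures, and p-values measure only the spread between these libraries. The RM1536 libraries were not repeats within counting error (chi-square of 91.1 per degree of freedom over 13663 genes). Every difference is therefore given against each of them.

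By the median difference, bone lay about as far from either RM1536 library as these lay from each other. Genes at least 2-fold apart were more frequent between bone and either library than within the pair. Over the 10112 genes with at least 5 counts scaled to a common library size (CPM) in at least 1 of the 3 libraries, the median size of the log2 difference was 0.26 from bone to RM1536 a, 0.33 from bone to RM1536 b, and 0.29 within the RM1536 pair. Bone was at least 2-fold above RM1536 a in 373 genes (3.69%) and below it in 425 (4.20%). Against RM1536 b these were 617 genes (6.10%) and 480 (4.75%). RM1536 a was at least 2-fold above RM1536 b in 416 genes (4.11%) and below it in 203 (2.01%). Bone lay at least 2-fold above both RM1536 libraries in 255 genes (2.52%) and at least 2-fold below both in 237 (2.34%), which together are 492 genes (4.87%). By any amount, it lay above both in 3291 genes (32.5%), below both in 3608 (35.7%) and between them in 3213.

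**Figure D1:**
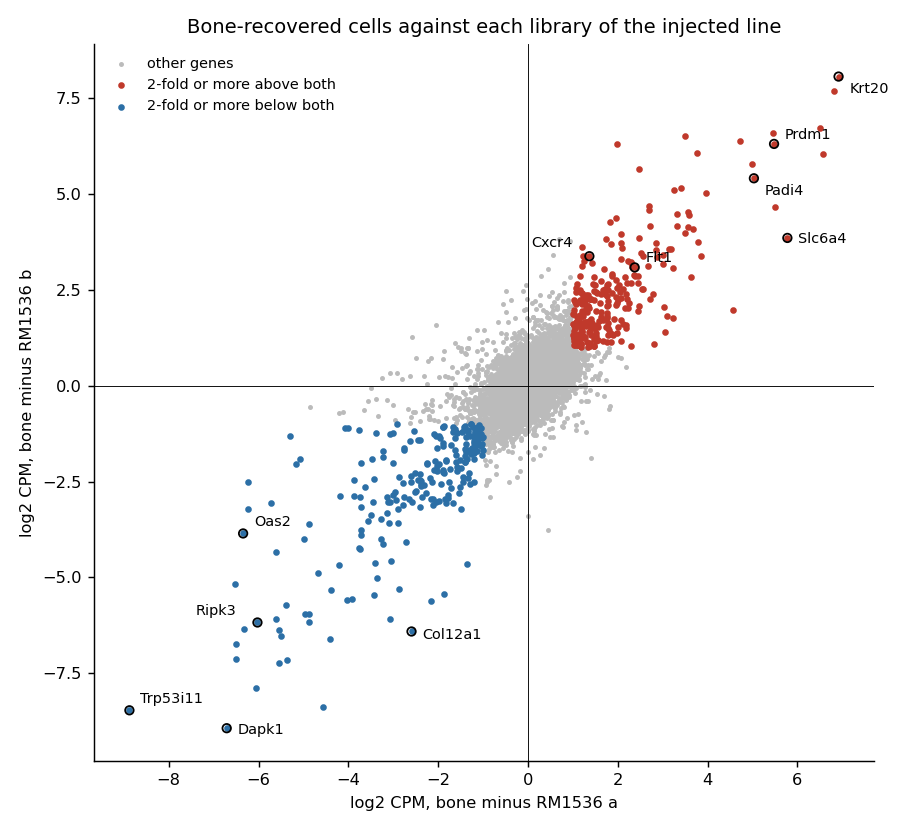
Log2 difference of bone to RM1536 a (horizontal) and to RM1536 b (vertical) for the 10112 genes at 5 CPM or more in at least 1 of the 3 libraries, each point being 1 gene. The 255 genes at least 2-fold above both libraries are red, the 237 at least 2-fold below both are blue, and circled genes are named in the text. Padi4 and Trp53i11 are the 2 genes that passed the test.

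By the edgeR quasi-likelihood test over 13832 genes, 2 genes differed between bone and RM1536 at an adjusted p under 0.05 (0.0145%). One was higher in bone (0.00723%) and the other lower (0.00723%). At an unadjusted p under 0.05 there were 1372 genes (9.92%), with 717 higher (5.18%) and 655 lower (4.74%). Genes other than these 2 did not pass, and their values below are descriptions.

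The gene that rose was Padi4, a peptidylarginine deiminase gene, whose enzyme turns arginine residues of histones and other proteins into citrulline. Padi4 had 112 CPM in bone, against 3.34 and 2.56 CPM in RM1536 a and b. The ratio was 33.4 to RM1536 a (95% counting interval 26.8 to 42.1) and 43.6 to RM1536 b (34.9 to 55.3). Its fitted log2 fold change was 5.24 ± 0.30 (SE, n = 1 and 2; adjusted p = 0.0242). In lung it had 14.01 CPM, and unlabelled RM1 a and b had 78.4 and 99.6 CPM, so bone stood just above the parent line and far above the line injected. In a bulk library, more cells with a transcript and more transcript per cell cannot be told apart. Padi2, its relative on chromosome 4, had 63.2 CPM in bone against 14.7 and 5.18 CPM in RM1536 a and b (adjusted p = 0.171), and DESeq2, which called 1.34% of all genes higher, called both. The other 3 genes of the family were under the level minimum.

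The gene that fell was Trp53i11, a gene induced by p53. No read was counted in bone, against 863 and 806 reads in RM1536 a and b (34.7 and 26.1 CPM). Taken against the 3 reads that a count of 0 allows, bone was at least 264-fold lower than RM1536 a and at least 198-fold lower than RM1536 b (adjusted p = 0.0242). Lung had 40.3 CPM and RM1 a and b had 2.97 and 2.90 CPM, so bone was the one library with no read of it. Of the other 19 p53 targets at the level minimum, bone lay below both RM1536 libraries in 1 and above both in 7. Both genes missed the threshold when either RM1536 library was left out (adjusted p = 0.0795 without a and 0.146 without b) and with limma-voom (0.0727 for Padi4 and 0.0923 for Trp53i11).

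The 250 bases before the RefSeq start of the 2 genes that passed are shown, 5′ to 3′ on the coding strand (GRCm38.p6), because their content of CG pairs differs. CG pairs are in capitals, and they are the bases that can carry DNA methylation, which was not measured here. The Padi4 window is at chr4:140774204-140774453 on the minus strand and the Trp53i11 window at chr2:93187298-93187547 on the plus strand.
Padi4: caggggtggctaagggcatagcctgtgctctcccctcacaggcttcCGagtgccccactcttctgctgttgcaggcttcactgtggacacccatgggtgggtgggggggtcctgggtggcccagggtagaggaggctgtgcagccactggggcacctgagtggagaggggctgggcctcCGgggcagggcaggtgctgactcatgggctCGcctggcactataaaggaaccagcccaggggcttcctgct
Trp53i11: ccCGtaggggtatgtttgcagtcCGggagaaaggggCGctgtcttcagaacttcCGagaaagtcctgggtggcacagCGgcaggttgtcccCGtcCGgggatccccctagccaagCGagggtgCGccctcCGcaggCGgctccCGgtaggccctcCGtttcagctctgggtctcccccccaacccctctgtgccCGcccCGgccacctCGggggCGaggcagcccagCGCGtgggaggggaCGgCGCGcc
The Padi4 window holds 3 CG pairs and the Trp53i11 window 22. The median is 17 over the 6209 genes at the level minimum with a single RefSeq entry. It is 14 in the genes at least 2-fold above both RM1536 libraries (149 of 255 had an entry) and 13.5 in those at least 2-fold below both (126 of 237).

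The genes that stood highest over both RM1536 libraries mostly had few reads in the injected line. Krt20, a keratin of gut and urothelial epithelium, had 28.3 CPM in bone, against 0.161 and 0.0323 CPM in RM1536 a and b. It rested on 645 reads against 4 and 1, a ratio of 176 to RM1536 a (95% counting interval 68.4 to 648), with an adjusted p of 0.0642. Tbc1d30, which codes for a Rab GTPase-activating protein, had 21.8 CPM against 0.121 and 0.0323. Wfdc13, of the whey acidic protein family, had 21.4 CPM against 0.161 and 0.129. Cd24a, a surface glycoprotein gene, had 6.98 CPM in bone, 0 reads in RM1536 a and 1 read in RM1536 b, so it was at least 57.8-fold above RM1536 a. Like Padi4 it was present in the parent line, at 13.9 and 6.58 CPM in RM1 a and b.

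Several of these genes code for regulators, receptors and secreted proteins. Prdm1, the transcriptional repressor BLIMP-1, had 69.7 CPM in bone, against 1.49 and 0.809 CPM in RM1536 a and b, and 22.4 CPM in lung (adjusted p = 0.0686). Cxcr6, the receptor of the chemokine CXCL16, had 16.8 CPM against 0.563 and 0.129. Spx, the precursor of the peptide spexin, had 53.6 CPM against 1.61 and 0.906. Scara5, a scavenger receptor gene, had 79.7 CPM against 5.03 and 2.36, and lung was close to bone at 56.1 CPM. Slc6a4, the serotonin transporter, had 15.0 CPM against 0.201 and 0.971. Fst, which codes for follistatin, a secreted binder of activins and some BMPs, had 8.74 CPM against 0.563 and 0.582 (adjusted p = 0.0843). The remaining genes among the 14 highest were Efs, Sntg1 and S100a16, at 5.09 to 24.4 CPM in bone and no more than 1.73 CPM in either RM1536 library.

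The genes described here that stood lowest had from 0 to 2 reads in bone. Dapk1, a death-associated protein kinase gene, had 1 read in bone, against 12.3 and 57.5 CPM in RM1536 a and b. The ratio was 0.00358 to RM1536 a (95% counting interval 9.0e-05 to 0.0201) and 0.000764 to RM1536 b (1.9e-05 to 0.00426). Lung had 0.118 CPM of it, and RM1 a and b had 139 and 86.1. For Ripk3, the kinase that drives necroptosis, bone had 0 reads and RM1536 a and b had 118 and 163, so bone was at least 36.0-fold and 40.0-fold lower (adjusted p = 0.0642). Lung had 1 read of Ripk3, while RM1 a and b stood at 71.2 and 99.5 CPM. Both recovered libraries were thus at the bottom for these 2 genes, and the injected line already stood below its parent.

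Bone had 2 reads of Pde10a, a cyclic nucleotide phosphodiesterase gene, while RM1536 a and b had 12.8 and 13.1 CPM and lung had 13.3 CPM (adjusted p = 0.0642). The developmental transcription factor genes Pknox2 and Gata4 had 0 reads in bone. Pknox2 had 6.64 and 10.3 CPM in RM1536 a and b and 0.118 in lung, while Gata4 had 6.76 and 2.59 CPM in RM1536 a and b and 6.04 in lung. Zfp521, a zinc finger regulator of mesenchymal and neural fate, was down to 1 read in bone, against 5.71 and 7.86 CPM. Bone and lung had 0 reads of Fbn2, which codes for a microfibril protein, and RM1536 a and b had 3.30 and 6.70 CPM. Also among the 14 lowest were Fam217b, Ppp1r3d, Scarf2, Cdh26 and Pcdhga7. Pcdhga7 shares its last exons with the other gamma protocadherins, so its count is uncertain. In all, 15 genes had 0 reads in bone and at least 1 CPM in both RM1536 libraries, and 3 had the converse pattern.

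**Figure D2:**
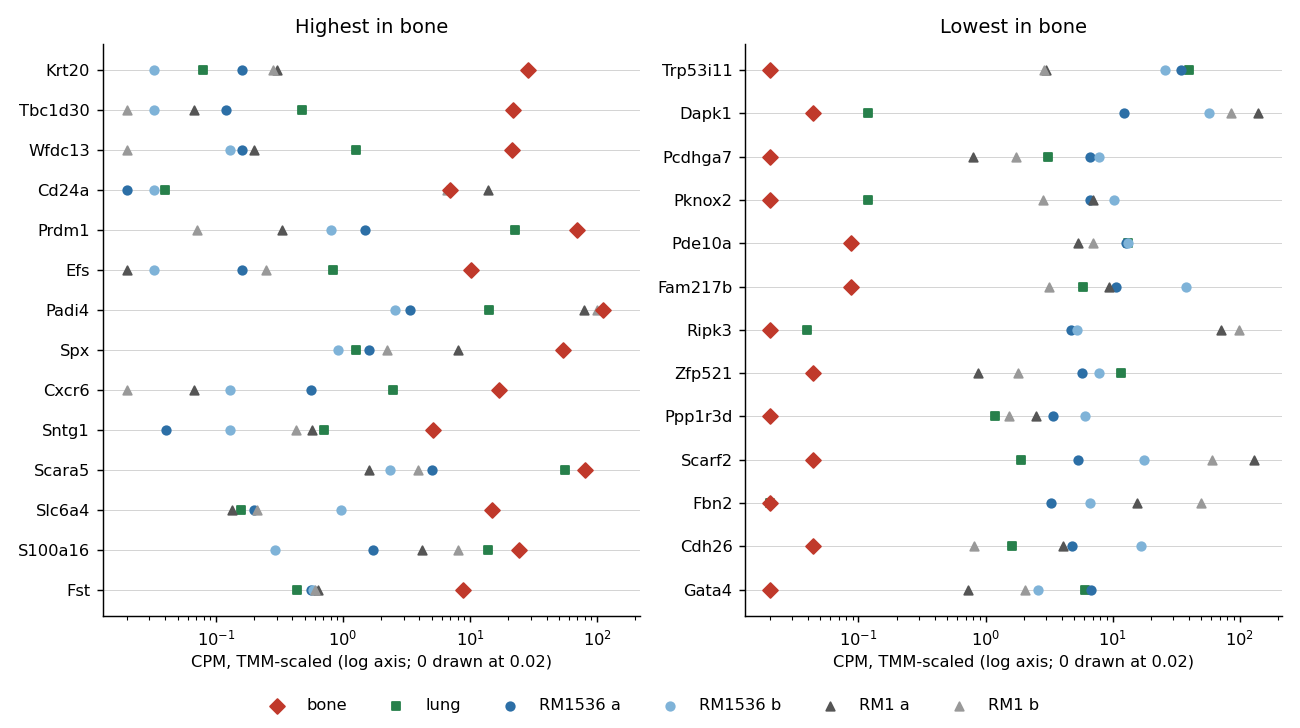
CPM in every library, on a log axis, of the 14 genes that lay farthest above both RM1536 libraries in bone (left) and 13 of the 14 that lay farthest below (right), 1 symbol per library. Values of 0 are drawn at 0.02. Bone diamonds stand apart from both RM1536 circles in every row because the genes were chosen that way. Lung and RM1 fall on either side depending on the gene.

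Differences in bone also ran along whole chromosomes. This pattern was found after the values had been seen and is given without a test. On chromosome 3, the median log2 difference of 478 genes was 0.31 to RM1536 a and 0.40 to RM1536 b, and bone lay above both libraries in 70.9% of them. On chromosome 9 it was -0.36 and -0.34 over 558 genes, and on chromosome 18 it was -0.38 and -0.39 over 264 genes, with bone below both libraries in 69.0% and 72.0% of genes. As fold values, these medians are 1.24 and 1.32 on chromosome 3, 0.782 and 0.790 on chromosome 9, and 0.769 and 0.766 on chromosome 18. Chromosomes 6 (-0.31 and -0.23, 473 genes) and 13 (-0.23 and -0.24, 358 genes) also stood below 0. On the other 14 autosomes and chromosome X the medians ran from -0.11 to 0.08 against RM1536 a and from -0.16 to 0.16 against RM1536 b. Between RM1536 a and b, no chromosome of the 20 had a median beyond -0.05 or 0.09.

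**Figure D3:**
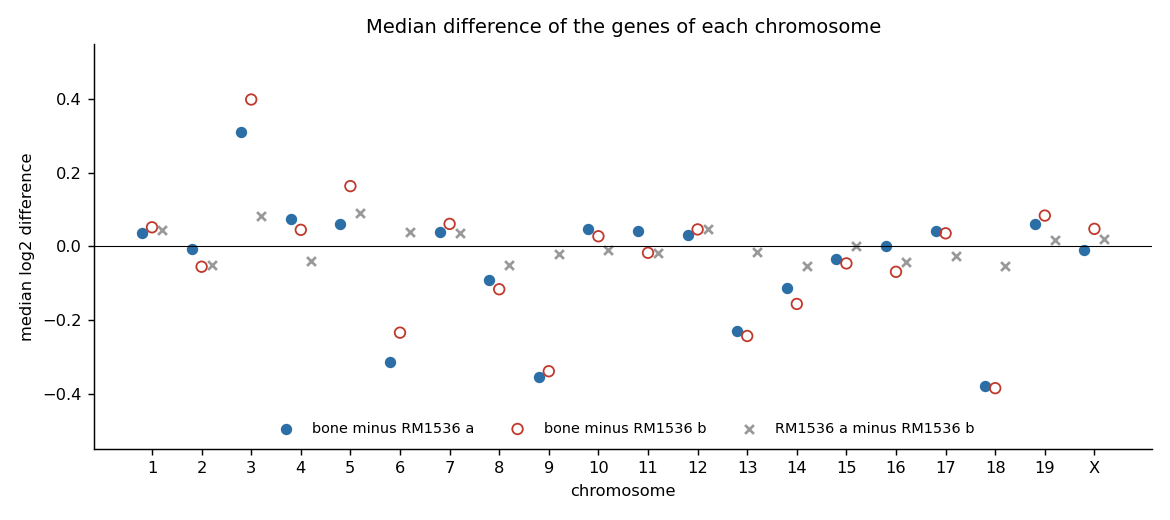
Median log2 difference over the genes of each chromosome for bone minus RM1536 a (filled circles), bone minus RM1536 b (open circles) and RM1536 a minus RM1536 b (crosses). Chromosome 3 lies above and chromosomes 6, 9, 13 and 18 lie below the rest in both bone comparisons, while the crosses stay between -0.05 and 0.09.

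Lung shared part of this pattern. On chromosomes 6 and 13 bone differed little from lung, with medians of -0.003 and 0.04, and lung itself had medians of -0.24 and -0.18 on chromosome 6 and -0.23 and -0.20 on chromosome 13 against RM1536 a and b. On chromosomes 3, 9 and 18, bone minus lung was 0.32, -0.33 and -0.29, close to the values against the injected line. The differences were spread along the chromosomes. When the genes of each were put in order and split into 10 equal bins, all 10 bins of chromosome 3 had medians above 0 against both RM1536 libraries, and all 10 bins of chromosomes 9, 13 and 18 had medians below 0. On chromosome 6 this held for 8 of 10 bins, and the first 2 bins had medians between -0.13 and 0.06. A count of bins does not set these chromosomes apart by itself. Chromosomes 8 and 14 had 9 of 10 bins below 0 against both libraries, and chromosome 7 had 9 above 0. Their chromosome medians were smaller, at -0.09 and -0.12 on 8, -0.11 and -0.16 on 14, and 0.04 and 0.06 on 7. DNA copy number was not measured in these files.

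**Figure D4:**
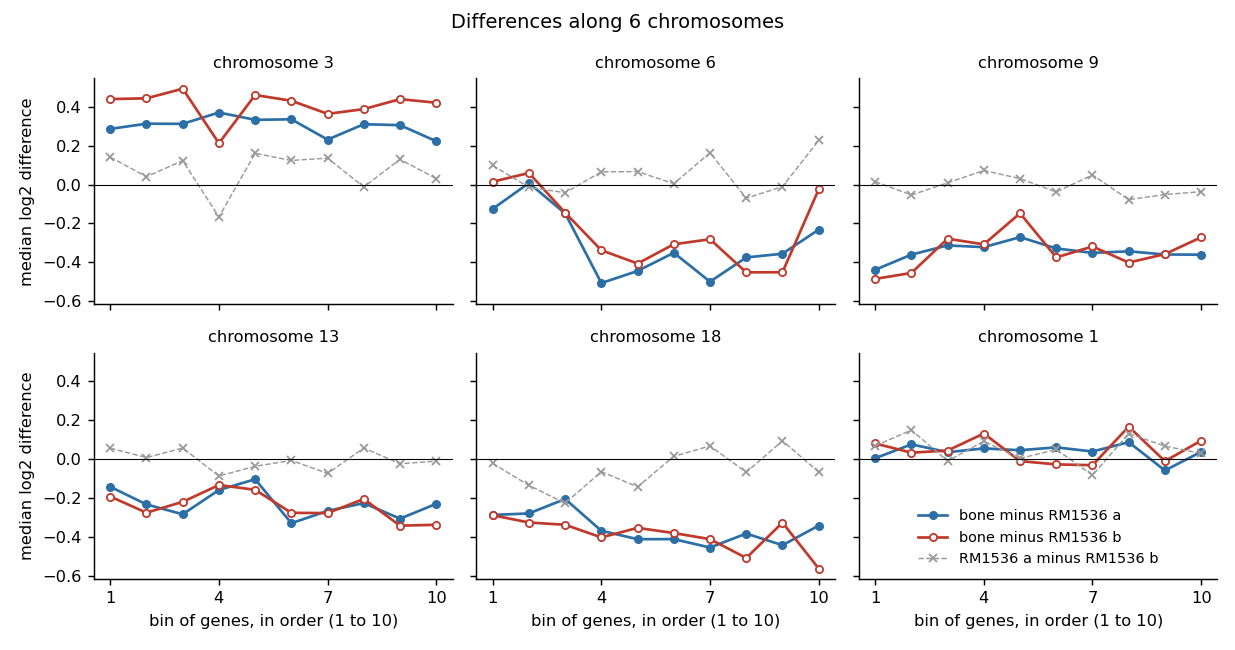
Median log2 difference in 10 successive equal bins of the genes of chromosomes 3, 6, 9, 13, 18 and, for contrast, 1, in order along the chromosome. Bone minus RM1536 a and bone minus RM1536 b keep to 1 side of 0 over the whole of chromosomes 3, 9, 13 and 18 and over 8 bins of chromosome 6.

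Of the genes at least 2-fold above both RM1536 libraries, 24 lie on chromosome 3 (5.02% of its genes), against 2.52% over all genes. Of those at least 2-fold below both, 19 lie on chromosome 18 (7.20%), 22 on chromosome 6 (4.65%) and 22 on chromosome 9 (3.94%). The share below over all genes was 2.34%, and chromosome 13 had 10 (2.79%). Other chromosomes also exceeded these shares, among them 10 (3.94%) and 1 (3.51%) above and 2 (25 genes, 3.16%) below. Among the genes named here, S100a16, Ctsk, Csf1 and Slc7a11 lie on chromosome 3, Ncam1, Col12a1, Ccnb2 and Kif23 on chromosome 9, and Tmem173, Pdgfrb, Egr1 and Cdh2 on chromosome 18. When each gene was set relative to the median of its chromosome, 477 genes lay at least 2-fold beyond both libraries, against 492 before.

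Genes were then grouped in 34 lists. Apart from Padi4 and Trp53i11, edgeR and limma-voom called no member of any list, so each list is described by its counts and its medians. Over all 10112 genes the median difference was -0.01 to RM1536 a and -0.02 to RM1536 b. Calls made by DESeq2 are given where it made more than 1 in a list, and over all 12759 genes with an adjusted p it called 171 higher (1.34%) and 208 lower (1.63%) in bone.

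Genes of homing and osteomimicry, the expression of bone-like genes by tumour cells, held several members that stood high in bone. Of 15 at the level minimum, 4 lay at least 2-fold above both RM1536 libraries and 1 at least 2-fold below, although the list's median was -0.07 and -0.29. Of 24 members tested, 5 had an unadjusted p under 0.05 on the higher side and 2 on the lower side, and DESeq2 called 1 and 2. Among all genes tested, the shares at an unadjusted p under 0.05 were 5.18% higher and 4.74% lower. Of all genes at the level minimum, 2.52% lay at least 2-fold above both libraries and 2.34% at least 2-fold below. Cxcr4, the receptor of the marrow chemokine CXCL12, had 168 CPM in bone, against 64.9 and 16.1 CPM in RM1536 a and b, and 63.5 in lung (adjusted p = 0.392). Bone was highest, but the RM1536 libraries lay farther from each other than the nearer one lay from bone. Jag1, a Notch ligand, had 54.5 CPM against 14.9 and 7.47 (adjusted p = 0.164). Pthlh, which codes for PTHrP, had 74.2 CPM against 33.0 and 34.7, and lung stood at 15.4 CPM. Bmp2 had 22.8 CPM against 10.3 and 10.6.

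Not every gene of this group was high. Csf1, the macrophage and osteoclast growth factor, had 54.2 CPM in bone, against 118 and 132 CPM in RM1536 a and b, and lung had 206 (adjusted p = 0.178 in bone against RM1536). Spp1, which codes for osteopontin, was abundant in all 3 libraries, with 3538 CPM in bone against 3723 and 2558 CPM. Runx2, the osteoblast transcription factor, had 78.8 CPM against 51.2 and 58.6. The integrin genes Itgb3 (96.8 CPM against 84.0 and 67.9) and Itgav (188 against 219 and 324) went either way by small amounts. Ackr3, a scavenging receptor of CXCL12, had 10.4 CPM against 3.66 and 1.62. In the wider list of chemokine, cytokine and NF-kappaB genes, which also holds Cxcr6, bone lay above both libraries in 10 of 20 members and below both in 6, with medians of 0.07 and 0.25, and DESeq2 called 1 in each direction.

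Of 23 collagens and matrix proteins, bone lay below both RM1536 libraries in 13 and above both in 8. It lay at least 2-fold below both in 8 and at least 2-fold above in 1, with medians of -0.41 and -0.30, and the median of RM1536 a minus b was also -0.41. Of 30 tested, 10 had an unadjusted p under 0.05 on the lower side and 1 on the higher side, and DESeq2 called 7 lower and 1 higher. At an unadjusted p under 0.05, the shares over all genes tested were 4.74% lower and 5.18% higher. The share at least 2-fold below both libraries was 2.34% over all genes. Fn1, fibronectin, had 779 CPM in bone, against 2769 and 2975 CPM in RM1536 a and b, and 5293 in lung. Fbn1, the microfibril protein fibrillin-1, had 38.1 CPM against 217 and 254, with 491 in lung. Col1a1, the main chain of type I collagen, had 0.790 CPM against 8.85 and 27.8, and lung stood at 604 CPM. Bgn, which codes for the proteoglycan biglycan, had 0.0878 CPM against 3.30 and 6.44, again with more in lung, at 25.3 CPM. For these 4 genes bone was below both RM1536 libraries and lung above both. The test of bone against lung gave adjusted p-values of 0.147 for Col1a1 and Bgn, 0.300 for Fn1 and 0.435 for Fbn1.

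Tnc (3.12 CPM in bone against 26.5 and 75.9 in RM1536 a and b) and Col12a1 (1.62 against 10.2 and 144) code for matrix proteins of tendon and periosteum, and the RM1536 libraries themselves were far apart for both. Among 21 matrix proteases and inhibitors, 3 lay at least 2-fold above both libraries and 2 at least 2-fold below, and DESeq2 called 1 in each direction. Mmp10, a stromelysin gene, had 118 CPM in bone against 30.4 and 5.69 CPM, and lung had 176. Ctsk, the collagenase of osteoclasts, had 6.28 CPM against 2.29 and 0.615. Timp3, an inhibitor of metalloproteinases, had 0.615 CPM against 1.69 and 17.2. Mmp2 (274 against 326 and 288) and Plau (383 against 472 and 270) were within 2-fold of both.

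Adhesion genes and signalling receptors included members on either side. Of 19 integrin and adhesion genes, 2 lay at least 2-fold above both RM1536 libraries and 2 at least 2-fold below, and DESeq2 called 2 in each direction. Itga1, a collagen-binding integrin, had 9.92 CPM in bone against 2.65 and 3.88 CPM in RM1536 a and b. Itga8 had 1.36 CPM against 11.4 and 10.2, and Ncam1, the neural cell adhesion molecule, had 24.4 CPM against 99.1 and 104 (adjusted p = 0.0843 for each). Of 27 growth factors and receptor tyrosine kinases, 3 lay at least 2-fold above and 4 at least 2-fold below, with 3 higher and 2 lower by DESeq2. Flt1, a VEGF receptor, had 105 CPM against 20.1 and 12.3 (adjusted p = 0.0843), with 41.4 in lung. Pdgfrb had 1.32 CPM against 4.99 and 59.5, and Igfbp7 had 0.0878 against 0.644 and 7.80.

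In the Wnt list, 1 of 15 lay at least 2-fold above and 1 at least 2-fold below, and DESeq2 called 2 higher and 1 lower. Wnt5a, a ligand of the noncanonical pathway, had 1.89 CPM in bone against 16.8 and 23.3 CPM in RM1536 a and b, and 25.97 in lung (adjusted p = 0.0843). Tcf7, a nuclear effector of the canonical pathway, had 41.8 CPM against 17.1 and 14.2, with 36.9 in lung. Of 26 TGF-beta and BMP genes, bone lay below both libraries in 14 and above both in 7, with medians of -0.28 and -0.32. Id1, a target of BMP signalling, had 4.30 CPM against 13.3 and 15.2, and Tgfbr3, the coreceptor betaglycan, had 127 against 51.5 and 64.6. The ligand gene Tgfb1 had 68.4 CPM against 62.4 and 46.1.

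Interferon-stimulated genes, whose products act against viruses, had the lowest median against RM1536 a of the lists with at least 5 members at the level minimum, but not against RM1536 b. Over 44 members, the median log2 difference was -2.43 to RM1536 a and -0.58 to RM1536 b. Bone lay below both in 30 members, at least 2-fold in 10, above both in 0 and between them in 14. The median level was 6.08 CPM in bone, against 26.7 and 4.34 CPM in RM1536 a and b, 9.45 in lung, and 108 and 144 in RM1 a and b. Of 49 tested, edgeR called 0, DESeq2 called 5 lower, and 20 had an unadjusted p under 0.05, all lower. The share of all genes tested that were lower at such a p was 4.74%, and DESeq2 called 1.63% of all genes lower. The gap between the RM1536 libraries (median 2.40) was about as large as that between bone and RM1536 a.

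The list's members split by whether bone went below RM1536 b as well. Oas2 and Oas1a, of the oligoadenylate synthetases that sense double-stranded RNA, had 2 and 1 reads in bone. In RM1536 a and b, Oas2 had 13.1 and 2.26 CPM and Oas1a had 6.11 and 0.906 CPM. For Cmpk2, a nucleotide kinase gene, bone had 0 reads and RM1536 a and b had 5.51 and 0.615 CPM. Stat2, a subunit of the factor that carries the interferon signal to the nucleus, had 10.1 CPM in bone against 68.6 and 32.0 CPM (adjusted p = 0.276). Its partner Irf9 (8.39 CPM against 39.2 and 14.4) also lay below both, as did Irf7 (1.49 against 26.3 and 3.27), which amplifies the response. Isg15, a ubiquitin-like protein gene, lay between them, with 7.95 CPM in bone against 47.6 and 3.24, and Mx1 was near the detection limit in all 3.

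The 250 bases before the RefSeq start of 3 genes of the interferon list that lay at least 2-fold below both libraries are shown, with matches to the core of the interferon-stimulated response element, GAAA followed by any 2 bases and another GAAA, in capitals. Both strands were searched, so a match can read as TTTC, 2 bases and TTTC, and overlapping matches were kept. Oas3 and Stat2 were chosen after their values had been seen. Of the 7 such genes with a window, these 3 hold the motif, and Cmpk2, Phf11d, Herc6 and Irf7 do not. Oas3 had 1.23 CPM in bone, against 21.0 and 2.72 CPM in RM1536 a and b. The windows are chr5:120907526-120907775 on the minus strand for Oas1a, chr5:120777660-120777909 on the minus strand for Oas3, and chr10:128270248-128270497 on the plus strand for Stat2 (GRCm38.p6).
Oas1a: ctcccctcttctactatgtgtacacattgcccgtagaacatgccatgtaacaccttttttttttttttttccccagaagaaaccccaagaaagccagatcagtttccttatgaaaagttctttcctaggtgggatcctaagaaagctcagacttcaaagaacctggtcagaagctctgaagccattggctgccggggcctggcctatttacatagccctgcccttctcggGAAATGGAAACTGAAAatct
Oas3: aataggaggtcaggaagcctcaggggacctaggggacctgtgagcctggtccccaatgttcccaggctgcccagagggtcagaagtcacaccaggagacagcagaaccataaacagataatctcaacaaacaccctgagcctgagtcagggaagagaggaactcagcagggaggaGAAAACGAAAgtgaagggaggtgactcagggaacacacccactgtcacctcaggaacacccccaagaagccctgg
Stat2: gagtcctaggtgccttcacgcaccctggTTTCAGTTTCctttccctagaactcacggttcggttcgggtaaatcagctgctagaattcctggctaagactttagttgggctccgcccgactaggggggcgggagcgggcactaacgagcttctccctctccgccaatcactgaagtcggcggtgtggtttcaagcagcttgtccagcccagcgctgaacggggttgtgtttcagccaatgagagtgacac
The motif was found in 12 of the 30 windows of the list (40%) and in 155 of the 6209 windows of all genes (2.50%). Of the genes at least 2-fold above both RM1536 libraries it was in 3 of 149 windows (2.01%), and of those at least 2-fold below both in 8 of 126 (6.35%), 3 of which belong to the list. A match is a description of the letters and says nothing about binding in these cells.

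Of 21 interferon receptors, sensors and upstream factors, bone lay below both RM1536 libraries in 13 and above both in 6. Medians were -0.06 and -0.10, and 2 lay at least 2-fold below both, as many as DESeq2 called lower. Ifnar1, a chain of the type I interferon receptor, had 79.3 CPM in bone against 69.3 and 59.4 CPM in RM1536 a and b. Tlr3, an endosomal sensor of double-stranded RNA, had 0.307 CPM against 5.51 and 2.04. Tmem173, which codes for the adaptor STING, had 290 CPM against 619 and 528, with 262 in lung, and Irf1 had 24.1 against 50.4 and 36.2.

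Of 16 genes of MHC class I antigen presentation, bone lay below both libraries in 10, with medians of -1.09 and -0.16. H2-M3 (1.32 CPM in bone against 12.9 and 4.43 in RM1536 a and b), the peptide trimming enzyme gene Erap1 (16.7 against 40.3 and 33.8) and the immunoproteasome gene Psmb10 (11.8 against 29.7 and 23.1) were the lowest. DESeq2 called 2 members lower. The classical heavy chain gene H2-K1 had 200.2 CPM in bone against 178 and 154, and B2m, the light chain, had 281 against 512 and 292. Of 9 ligands of immune receptors, bone lay above both libraries in 5 and below both in 2, with medians of 0.05 and 0.79. Ulbp1, a ligand of the activating receptor NKG2D, had 0.790 CPM against 8.29 and 9.58 (adjusted p = 0.0843). Lgals9, galectin-9, had 3.03 CPM against 33.3 and 16.6, and DESeq2 called both lower. Cd274, which codes for PD-L1, had 5.36 CPM against 4.67 and 1.94, and Cd80, a costimulatory ligand gene, had 8.03 against 3.50 and 4.01.

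Proliferation genes lay below both RM1536 libraries in nearly the whole of their lists, by small amounts against RM1536 a and by more against RM1536 b. Bone was below both in 18 of 20 S phase genes (medians -0.18 and -0.74) and in 17 of 20 mitosis genes (-0.23 and -0.77), and above both in 0 of either. The shares over all genes were 35.7% below both and 32.5% above both. Mcm2, a subunit of the replicative helicase, had 143 CPM in bone against 201 and 314 CPM in RM1536 a and b, with 131 in lung. Pcna, the replication clamp, had 251 CPM against 316 and 418. Ccnb2, cyclin B2, had 48.0 CPM against 107 and 125, and the cytokinesis gene Kif23 had 43.5 against 67.1 and 90.8. RM1536 b was the higher of the 2 culture libraries (median of RM1536 a minus b -0.57 and -0.42). Mki67, a mark of cycling cells, was among the 3 mitosis genes that lay between the RM1536 libraries, at 167 CPM against 139 and 342.

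Myc had 8.34 CPM in bone, against 38.4 and 15.2 CPM in RM1536 a and b, and 124 in lung, but its 22 targets and ribosome biogenesis genes lay between the 2 RM1536 libraries in 13 cases (medians 0.11 and -0.45). Cdkn1a, which codes for the cell cycle inhibitor p21, had 376 CPM against 272 and 221, while Cdkn1b, which codes for p27, had 48.7 against 103 and 80.7. Of 16 genes tied to dormancy, bone lay above both in 8 and below both in 4, with medians of 0.18 and 0.30. Btg2, an antiproliferative p53 target, had 17.6 CPM against 9.41 and 7.90, and the phosphatase gene Dusp4 had 297 against 173 and 113. RM1 a and b had 19.8 and 25.3 CPM of Btg2, and 198 and 266 CPM of Dusp4. Axl, the GAS6 receptor, had 585 CPM against 592 and 757.

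AP-1 and immediate early genes, which respond within minutes to growth and stress signals, had the highest medians among lists of 20 or more members. Bone lay above both RM1536 libraries in 16 of 23 and below both in 3, with 6 at least 2-fold above and medians of 0.49 and 0.63. Of 24 tested, 6 had an unadjusted p under 0.05, all higher, and DESeq2 called 2 higher. The share of all genes tested that were higher at an unadjusted p under 0.05 was 5.18%. Egr1 had 381 CPM in bone, against 83.3 and 135 CPM in RM1536 a and b (adjusted p = 0.392). Ier3 had 187 CPM against 67.0 and 66.5 (adjusted p = 0.143), Fosb 31.2 against 10.6 and 13.6, and Dusp1 28.8 against 13.5 and 13.9. Lung lay above both RM1536 libraries for these 4 genes as well, at 335, 117, 23.95 and 41.7 CPM. So did RM1 a and b for Ier3 (83.8 and 117 CPM), Fosb (25.2 and 26.8) and Dusp1 (14.8 and 40.0). For Egr1, RM1 a and b had 77.7 and 229 CPM. The list's median level was 89.6 CPM in bone and 63.4 and 53.7 in RM1536 a and b. It was 86.7 and 119 CPM in RM1 a and b, so the rise was not particular to recovered cells. The mitochondrially encoded genes lay above both in 8 of 9 (medians 0.48 and 0.69), with mt-Cytb at 4096 CPM against 2344 and 2195.

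Metabolic and stress lists were mixed. Slc16a3, the lactate exporter MCT4, had 590 CPM in bone, against 141 and 121 CPM in RM1536 a and b, and 209 in lung (adjusted p = 0.0843). Bnip3, a mitophagy gene induced by hypoxia, had 107 CPM against 46.5 and 30.4. The 22 glycolysis and hypoxia genes had medians of 0.07 and 0.16. Of 28 genes of cholesterol and fatty acid synthesis, 20 lay between the RM1536 libraries, and Insig1, which retains the SREBP complex in the endoplasmic reticulum, had 432 CPM against 194 and 181. Unfolded protein response genes had medians of -0.47 and 0.18, with the mTORC1 inhibitor gene Ddit4 at 88.8 CPM against 269 and 176. NRF2 targets had medians of -0.02 and 0.00, with Nqo1 at 52.4 CPM against 21.7 and 29.4. The cystine transporter gene Slc7a11 had 289 CPM against 166 and 45.0.

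Epithelial and mesenchymal genes were both present in bone and in the injected line. Krt8 and Krt18, keratins of simple epithelium, had 2366 and 367 CPM in bone, against 2123 and 1349 CPM for Krt8 and 458 and 275 CPM for Krt18 in RM1536 a and b. The mesenchymal filament gene Vim had 3993 CPM against 2737 and 2594, and Cdh2, N-cadherin, had 179 against 219 and 261. Only 6 of 23 epithelial genes reached the level minimum. Among them, Ocln, a tight junction gene, had 6.37 CPM against 1.57 and 0.874, with 8.38 and 5.70 in RM1 a and b. Jup, plakoglobin, had 116 CPM against 175 and 230 in RM1536 a and b. Steap1, a prostate surface antigen, had 20.6 CPM against 81.1 and 51.6. Of 15 contractile cytoskeleton genes, bone lay below both libraries in 8, with Cnn2, a calponin gene, at 101 CPM against 176 and 221.

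**Figure D5:**
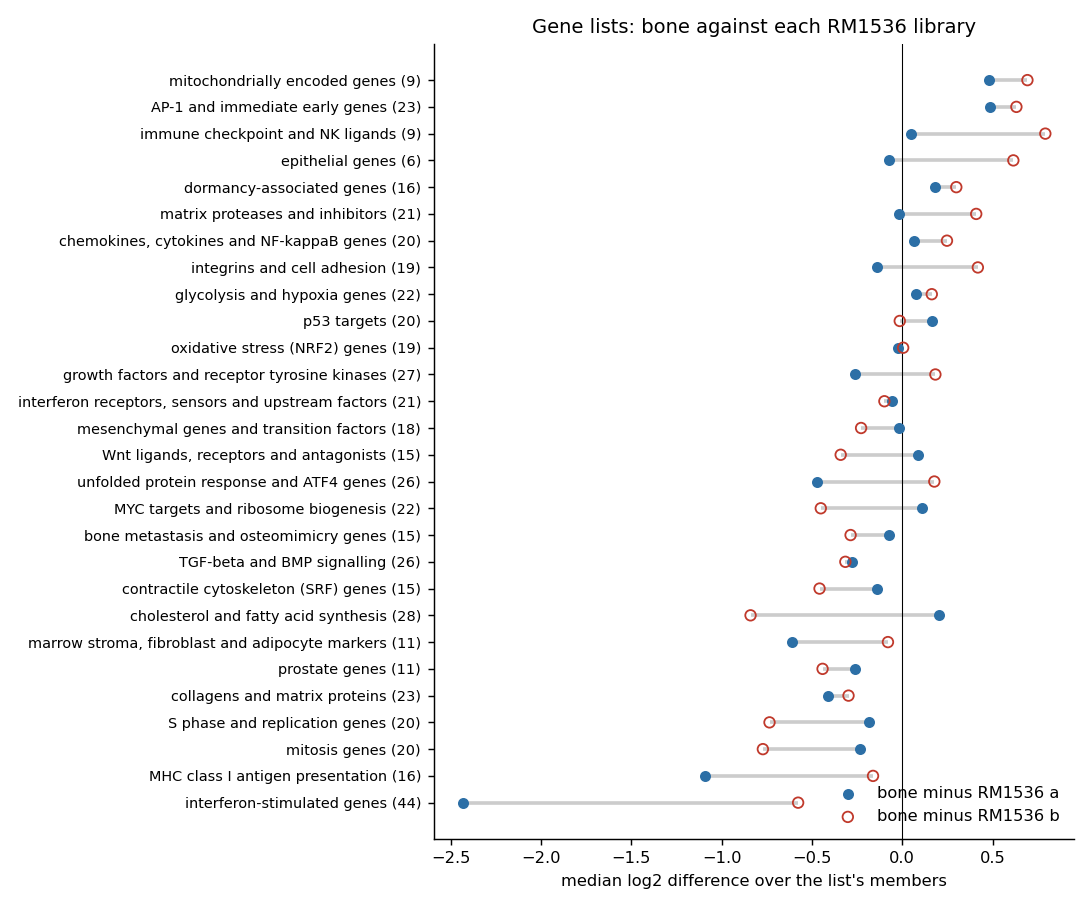
Median log2 difference of bone to RM1536 a (filled circles) and to RM1536 b (open circles) over the members of each gene list at 5 CPM or more, with the number of members in brackets, for lists with at least 5. The lines join the 2 values of a list. Interferon-stimulated genes lie lowest against RM1536 a, at -2.43, while against RM1536 b, at -0.58, they lie above cholesterol and fatty acid synthesis (-0.84), mitosis (-0.77) and S phase genes (-0.74).

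Most leukocyte markers were near the detection limit. Of 29 leukocyte markers, 21 are in the table and 1, Cd68, reached the level minimum, with 19.7 CPM in bone, against 11.2 and 3.59 CPM in RM1536 a and b. Summed leukocyte markers came to 26.3 CPM in bone, against 12.3 and 4.69 CPM. Unlabelled RM1 a and b had 17.2 and 47.3 CPM, so bone lay within the range of the parent line. Cd68 made up most of the sum in bone, and had 9.58 and 43.5 CPM in RM1 a and b. Without reads in bone were 7 leukocyte markers, against 11 and 12 in the RM1536 libraries, and the pan-leukocyte gene Ptprc was among them. The myeloid lysozyme gene Lyz2 had 61 reads in bone and 73 in lung, and 0 reads in the other 4 libraries. Laptm5, a lysosomal protein of blood cells, had 2.41 CPM against 0.241 and 0.129. Unlike Lyz2 it was present in the parent line, at 1.54 and 1.91 CPM in RM1 a and b, and lung had 0.276 CPM. DESeq2 called Lyz2 and Laptm5 higher (adjusted p = 0.00287 and 0.0370), while edgeR did not (0.130 and 0.120).

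Summed osteoblast and osteoclast markers came to 96.3 CPM in bone, against 67.1 and 91.2 CPM in RM1536 a and b, with the osteoblast factor Sp7 at 0 reads. Runx2 made up 78.8 CPM of the sum in bone, and 51.2 and 58.6 CPM in RM1536 a and b. Phex, an endopeptidase gene of bone cells, had 8.78 CPM against 3.78 and 3.24, with 6.58 and 6.72 in RM1 a and b. Endothelial markers summed to 15.6 CPM against 11.0 and 6.89, with Tie1 at 6.67 CPM against 3.14 and 1.46 and Cdh5 at 0 reads. Stromal and adipocyte markers summed to 1871 CPM against 1585 and 1816. Of the 11 stromal and adipocyte markers at the level minimum, bone lay below both libraries in 5 and above both in 4. Their medians were -0.61 and -0.08. Erythroid and megakaryocyte markers summed to 199 CPM against 225 and 349. In the erythroid and megakaryocyte list only 1 gene reached the level minimum, and it made up most of each of these sums. It had 195 CPM in bone, 222 and 346 in RM1536 a and b, and 341 and 45.0 in RM1 a and b. The Y-linked gene Ddx3y had 106 CPM in bone, against 98.3 and 87.8 CPM. The part of other cells in any difference was not tested.

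Bone was also set against lung for the genes named here, in the same fit. Trp53i11 was the one that passed, with 0 reads in bone against 1021 reads in lung (adjusted p = 0.0443). Padi4 did not pass (112 against 14.01 CPM, adjusted p = 0.147), and neither did Krt20 (28.3 against 0.0789 CPM, adjusted p = 0.147) or Fst (8.74 against 0.434 CPM, adjusted p = 0.177). A p that misses the threshold here, with 1 library on each side, does not show that the sites were alike.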

How the data were processed

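Counts per gene were read from the table the authors deposited, which holds raw read counts with no normalization. The genome build GRCm38 and the tools TopHat2, HTSeq and edgeR are listed per the submitters' processing notes, which do not say what each was used for. How strand was handled and which annotation was counted is not given in the sources used here. Of 23792 entries, 1 has no name and was dropped. It held 0.00626% to 0.00830% of a library's counts. Of the other 23791, 1710 were at 0 in all libraries, 27 have names turned into dates, and 23065 matched a unique GENCODE M21 symbol for position.

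Bone minus RM1536 was tested by the quasi-likelihood method of edgeR 4.0.16 (R 4.3.3) on all 6 libraries in 4 groups, after TMM scaling and filterByExpr. Benjamini-Hochberg adjustment covered 13832 genes, with calls at 0.05. The spread rested on 2 residual degrees of freedom (prior 4.03, biological coefficient of variation 0.269). CPM are TMM-scaled, and log2 differences to RM1536 a and b use a prior count of 2. Counting intervals are exact 95% intervals. They and the limit of 3 reads that a count of 0 allows (0.132 CPM in bone) cover counting error only. Simulated data with known fold changes were used to test the scripts.

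Named genes were those called, the 14 highest and 14 lowest by difference to the nearer RM1536 library, up to 4 per list by that difference, and a fixed set of key genes. Predicted genes were left out, and a few genes the rule chose are not reported here. Oas3, Stat2, Herc6, Fbn1, Lyz2, Laptm5, Ptprc, Sp7 and Cdh5 were added after their values were seen. The lists hold 802 entries (751 different genes, 726 in the table). The comparison and the lists were chosen with earlier results of these data known. Alternatives were DESeq2 1.42.0, limma-voom (limma 3.58.1), other scalings, filters and sample sets, and leaving out each replicate. Promoter windows are from RefSeq tables of GRCm38.p6.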

Additional observations from a re-analysis of the deposited data

Results flagged for a closer look

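Trp53i11 differed between cells from bone and cells from lung, with 0 reads in bone against 1021 reads in lung (40.3 CPM). The test of bone minus lung in the same fit gave an adjusted p of 0.0443 over all genes tested. It rests on 1 library from each site of the same mouse. No other gene named in the text passed that test.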

How the results depend on the processing

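The number of genes called depended strongly on the tool and the fit. Against 2 in edgeR, DESeq2 called 379 genes, limma-voom 0 (1331 at an unadjusted p under 0.05), edgeR without a low-count filter 859, and edgeR on bone, RM1536 a and RM1536 b alone 155. Median-ratio scaling, the stricter filter and the fit without lung each called the same 2. Leaving out 1 culture library gave from 0 to 128 calls: 0 without RM1536 a or b (1544 and 1114 at an unadjusted p under 0.05), 32 without RM1 a and 128 without RM1 b. The causes were not tested. Padi4 and Trp53i11 were called by every alternative that called any gene, and their directions held in all.

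The 492 genes at least 2-fold beyond both RM1536 libraries became 833 with a level minimum of 1 CPM, and between 756 and 1066 when set against a single RM1536 library, where only 1 library must be passed. Other settings gave from 373 to 495. Some named genes changed direction, in the fitted log2 fold change, with the RM1536 library used. Leaving out 1 library gave Isg15 from -2.58 to 1.30, Mx1 from -1.85 to 1.39, Mki67 from -1.02 to 0.27, Krt18 from -0.32 to 0.43, Plau from -0.30 to 0.51 and Spp1 from -0.073 to 0.48. Without a low-count filter Krt18 stood at -0.027. The other 113 of 119 genes kept their direction under every alternative that tested them, and the stricter filter tested 101 of the 119. The medians of chromosomes 3, 6, 9, 13 and 18, the only ones checked in this way, kept their sign under every alternative. The value was the mean of both differences, or the 1 difference left when RM1536 a or b was dropped. It ran from 0.31 to 0.40 on chromosome 3, both ends being single differences, and from -0.41 to -0.36 on chromosome 18. This check was chosen after seeing the data. No paired analysis was possible because bone is a single library with no replicate letter.

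One library from 1 mouse, regrown in culture, limits every statement here. Spread between mice, between femurs or between regrown cultures was not measured. The depth of bone, 22763835 counts, allows up to 0.132 CPM where no read was found.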
